A study of Mus musculus with 20 samples.

Results

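A set of 10 imprinted genes was followed through development of the mouse habenula, a small paired nucleus of the dorsal diencephalon that relays forebrain signals to the midbrain. The 10 members were taken by symbol (Dlk1, Meg3, Rian, Mirg, Peg3, Snrpn, Ndn, Igf2, H19 and Cdkn1c), and all 10 were found among the 37994 genes of the developmental table and among the 36104 genes of an additional E18 table. Single cells had been sequenced with Cel-seq2, a plate method that primes on poly-A tails and counts molecules by a barcode of 6 bases (unique molecular identifier, UMI). The developmental series held 15 plates of the mouse line Brn3a-tauLacZ, with 2 plates at each of embryonic day (E) 11, E13, E15 and E18, at postnatal day (P) 4 and P7 and in the adult, and with 1 plate at E12. Brn3a is the older name of Pou4f1, a POU-domain transcription factor of habenula neurons, and tauLacZ is a reporter, so all series animals came from the reporter line. The labels give neither the number of reporter copies nor the adult age, nor how cells were dissociated and placed in wells, nor how many animals stood behind a plate. C57BL/6 mice at E18 gave 5 further plates: 2 held the left habenula, 2 the right and 1 both sides (1 label of that plate reads E1 and the others E18).

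In an imprinted gene, transcripts come mainly from the copy of 1 parent. Imprinted clusters have control regions whose DNA methylation is laid down in the egg or the sperm, and these marks direct which copy of each gene in the cluster is read. Dlk1, Peg3, Snrpn, Ndn and Igf2 are paternally expressed, and Meg3, Rian, Mirg, H19 and Cdkn1c are maternally expressed. Many imprinted genes act on fetal growth and on brain development, and in mouse choroid plexus and leptomeninges Igf2 is known to be transcribed from both copies. The tables did not separate parental alleles, so the values below are total levels and say nothing about which copy was read.

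The members lie in a few clusters (GRCm38/mm10, GENCODE M21 gene limits). On chromosome 12, Dlk1 (chr12:109452823-109463336, plus strand) codes for a transmembrane protein related to Notch ligands, and the non-coding genes Meg3 (chr12:109541001-109571726), Rian (chr12:109603940-109661716) and Mirg (chr12:109729764-109749460) follow on the same strand after gaps of 77.7, 32.2 and 68.0 kb. On chromosome 7, Peg3 (chr7:6703892-6730431, minus strand) codes for a zinc-finger protein. Snrpn (chr7:59982495-60140219, minus strand), which codes for a splicing protein, and Ndn (chr7:62346569-62350262, plus strand), which codes for the MAGE protein necdin, belong to the domain that corresponds to the human Prader-Willi region. H19 (chr7:142575529-142578143), a non-coding RNA, Igf2 (chr7:142650766-142666816), a fetal growth factor, and Cdkn1c (chr7:143458339-143461050), which codes for the CDK inhibitor p57, stand in this order on the minus strand. H19 and Igf2 are 72.6 kb apart, and Cdkn1c starts 792 kb further on.

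Dlk1 and Meg3 are neighbours on the same strand whose levels moved in opposite directions between E18 and P4, so the RefSeq windows around their starts are shown (GRCm38.p6, 250 bases before to 50 after the start, CG pairs in capitals because they are the sites of DNA methylation). The Dlk1 window is chr12:109452573-109452872 and the Meg3 window, the first of 2 that RefSeq gives for the gene, chr12:109540746-109541045, both on the plus strand.
Dlk1: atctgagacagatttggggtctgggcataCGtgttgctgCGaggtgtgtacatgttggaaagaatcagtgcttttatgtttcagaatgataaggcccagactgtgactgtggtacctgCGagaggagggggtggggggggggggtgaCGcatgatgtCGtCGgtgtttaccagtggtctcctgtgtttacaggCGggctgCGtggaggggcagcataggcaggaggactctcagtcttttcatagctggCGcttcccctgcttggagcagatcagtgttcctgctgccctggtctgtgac
Meg3: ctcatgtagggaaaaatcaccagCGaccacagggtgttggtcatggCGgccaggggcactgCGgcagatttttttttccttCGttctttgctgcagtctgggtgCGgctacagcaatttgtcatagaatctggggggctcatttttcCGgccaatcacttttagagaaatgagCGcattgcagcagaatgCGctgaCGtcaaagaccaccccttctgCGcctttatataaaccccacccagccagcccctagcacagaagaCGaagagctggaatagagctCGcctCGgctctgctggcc
The Dlk1 window holds 9 CG pairs and the Meg3 window 13, where the median of 32851 promoter windows is 7. TGCCGC, the hexamer that the imprinting factor ZFP57 reads when it is methylated, was searched on both strands: it is in the Meg3 window 1 time, on the other strand, and not in the Dlk1 window, and 11.6% of all windows hold it. The second Meg3 window (chr12:109545148-109545447) holds 1 CG pair and no TGCCGC. RefSeq promoter windows were matched for 8 of the 10 members, and those of H19 and Cdkn1c were not analysed here.

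Of the 5 members that host miRNAs in the RefSeq table, Meg3 hosts 3 mature miRNAs, Rian 6, Mirg 26, H19 2 and Igf2 2. The following were chosen to show the kind of product that these hosts carry, with the seed (bases 2 to 8) in capitals.
miR-770-5p of Meg3: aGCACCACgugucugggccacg
miR-770-3p of Meg3: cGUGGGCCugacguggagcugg
miR-370-3p of Rian: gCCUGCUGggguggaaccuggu
miR-341-3p of Rian: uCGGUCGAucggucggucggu
miR-134-5p of Mirg: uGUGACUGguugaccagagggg
miR-382-5p of Mirg: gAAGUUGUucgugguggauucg
miR-154-5p of Mirg: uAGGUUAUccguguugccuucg
miR-410-3p of Mirg: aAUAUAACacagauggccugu
miR-453 of Mirg: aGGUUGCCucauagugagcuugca
miR-496a-5p of Mirg: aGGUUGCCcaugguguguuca
miR-675-5p of H19: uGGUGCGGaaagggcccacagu
miR-483-3p of Igf2: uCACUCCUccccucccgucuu
The 26 mature miRNAs of Mirg carry 25 different seeds, and the shared one, GGUUGCC, is that of miR-453 and miR-496a-5p. Mature miRNAs have no poly-A tail, so what was counted under these symbols is the host transcript and not the miRNA.

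Of 5756 wells in the series, 3729 were kept because they showed 500 genes or more, no more than 20% mitochondrial UMIs, and 1000 UMIs or more once spike-in and mitochondrial counts were set aside. Of these, 2933 held at least 1 UMI of Pou4f1 and are called Pou4f1-positive. The C57BL/6 set had 1920 wells, 1082 kept wells and 727 Pou4f1-positive wells. Summed over kept wells, series plates held between 758697 counts (adult plate 1) and 7760372 counts (P7 plate 1), and the median kept well of these plates held 5058 and 23108 counts. Levels are given as counts per 1000000 (CPM) of the summed wells of a plate, and the plate is the replicate. Whether the plates of a group came from separate animals is not stated, so the p-values measure the spread between plates only. In such sums a change in the make-up of the wells and a change of RNA per cell cannot be told apart. The tissue label was set beside markers in Pou4f1-positive wells. There the 10 neuron markers summed to between 5368 and 14345 CPM on the 15 series plates, and the 10 habenula neuron markers to between 1352 and 9356. The habenula list includes Pou4f1, the gene of the gate, so its sum is partly set by the choice of wells and is no independent check. Of the 15 series plates, 3 stood apart. E13 plate 2 held 1542 CPM of vascular and fibroblast markers and 2564 CPM of ependymal and choroid plexus markers in its Pou4f1-positive wells, E18 plate 1 held 1460 CPM of the latter and was Pou4f1-positive in 28.1% of wells, and adult plate 1 had 21 positive wells of 56 and 3795 CPM of oligodendrocyte markers. Values without these 3 plates are given where they change a call.

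**Figure D1:**
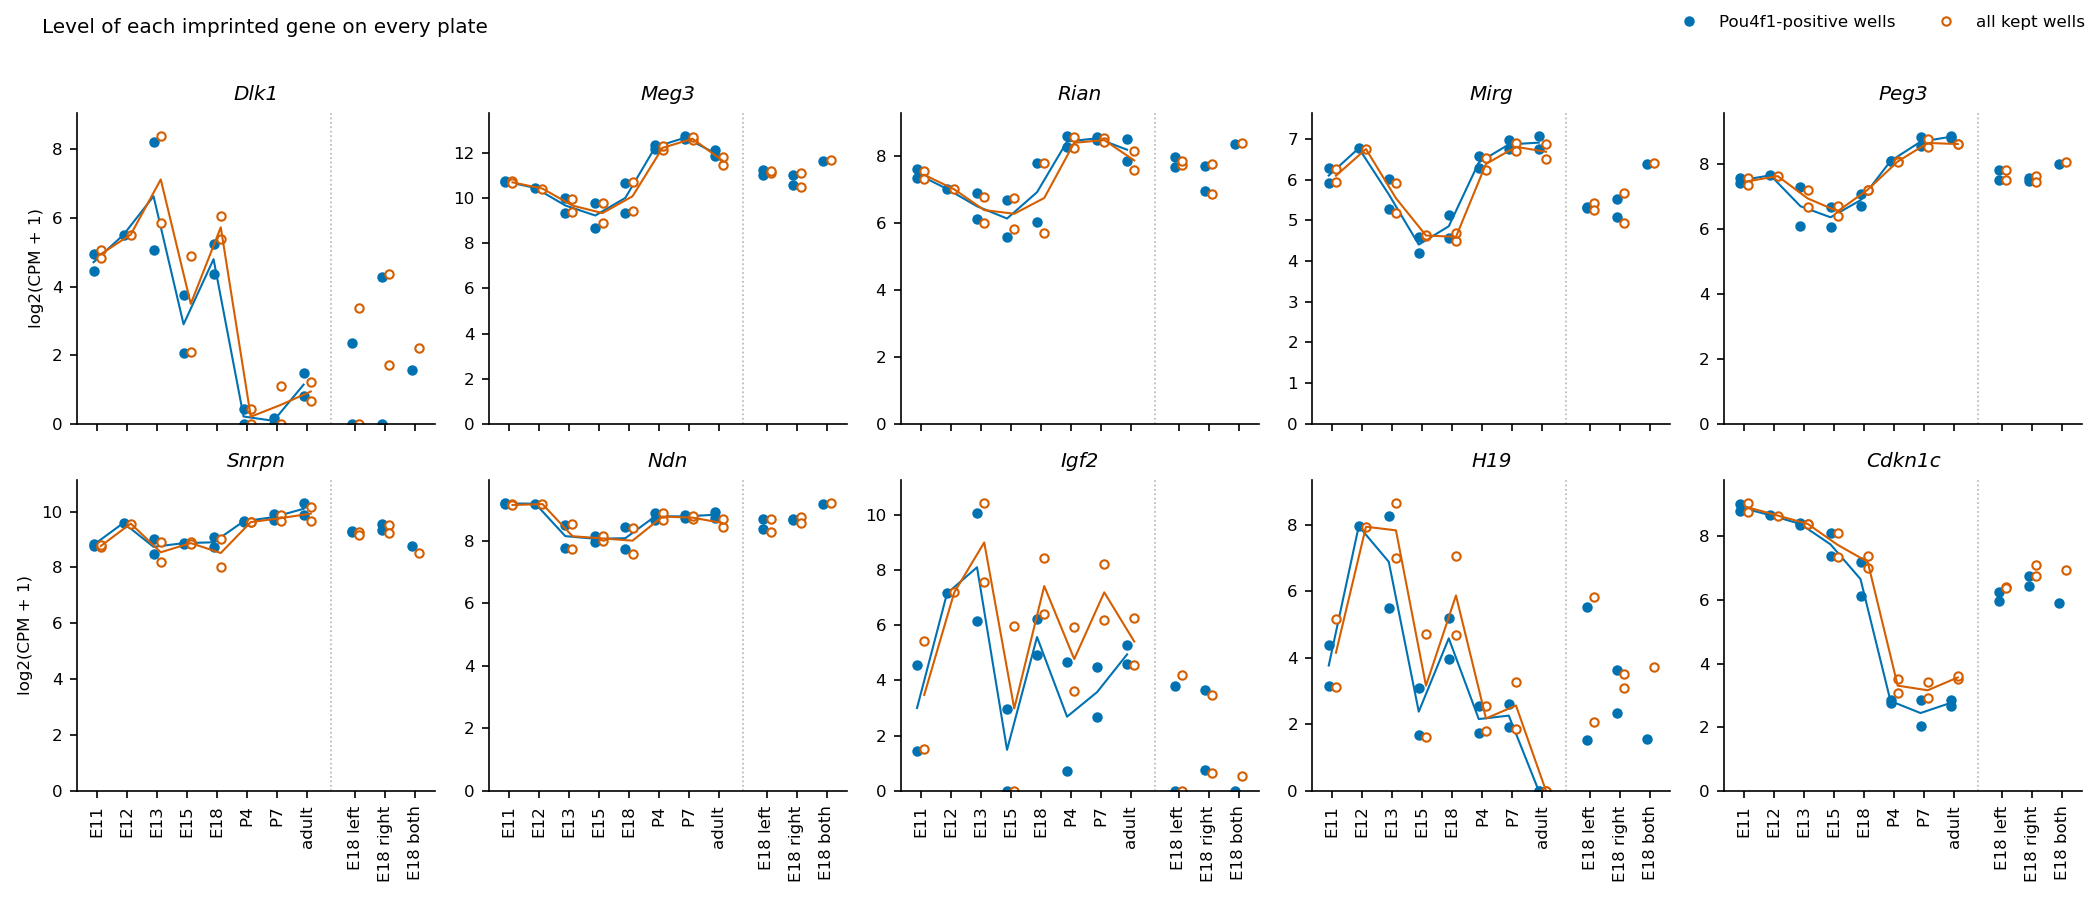
Level of each member on every plate as log2(CPM + 1), in Pou4f1-positive wells (filled) and in all kept wells (open), by stage; lines join the stage means of the plotted values, and the E18 plates of C57BL/6 stand right of the dotted line. Meg3 lies lowest at E15 and highest at P7, Cdkn1c falls from 443 and 518 CPM at E11 to between 3.13 and 6.31 CPM from P4 on in Pou4f1-positive wells, and Igf2 is higher in all kept wells than in Pou4f1-positive wells on most plates.

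Every member differed between stages in Pou4f1-positive wells in the main fit, although the calls of Igf2 and Ndn depended on single plates, as given below. In the test of any difference among the 7 stages with 2 plates, which leaves out E12 (edgeR quasi-likelihood F test on plate sums, Benjamini-Hochberg adjusted over 16353 genes), 10 of 10 members passed at 0.05, where 49.4% of all genes tested did. Between E11 and P7, 6 of 10 passed, 4 higher and 2 lower at P7, where 35% of all genes passed (18.8% higher and 16.2% lower). Each of the 4 higher calls was lost when single plates were left out, as given below. Between E18 and P4, 6 of 10 passed, again 4 higher and 2 lower, where 20.4% of all genes passed (9.97% higher and 10.4% lower). Both comparisons come from the same fit of series plates, which leaves out the C57BL/6 E18 plates. In Pou4f1-positive wells those plates held medians of 2089 CPM of Meg3, 39.3 of Mirg, 191 of Peg3 and 637 of Snrpn. The series means at E18 were 1138, 28.5, 119 and 480 CPM. For Dlk1 and Cdkn1c the medians were 1.95 and 75.8 CPM, and the series means 28.1 and 107 CPM. Mouse line and plate set differ together here and cannot be told apart. The median log2 fold change of the 10 members was 0.53 from E11 to P7 and 0.86 from E18 to P4, against 0.01 and 0.01 over all genes tested. From P7 to the adult, 0 of 10 passed in edgeR's test, where 3.68% of all genes did (1.35% higher and 2.34% lower). H19 was at -6.86 there (SE 2.96, adjusted p = 0.221, edgeR), and DESeq2 passed this 1 member (-5.01, adjusted p = 0.0387). The edgeR values were 2.96 for Dlk1, -0.45 for Rian, -0.10 for Mirg, 0.02 for Peg3 and 0.17 for Snrpn. They were -0.06 for Ndn, 0.91 for Igf2 and 0.25 for Cdkn1c.

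In all kept wells, whatever their Pou4f1 count, 8 of 10 members differed between stages (46.4% of 17453 genes), with adjusted p of 0.0543 for Ndn and 0.0957 for Igf2 in edgeR's test. Ndn passed there without E13 plate 1 (0.0318), E18 plate 1 (0.0193) or E18 plate 2 (0.00539), and Igf2 without E15 plate 1 (0.0326), E18 plate 1 (0.0487) or E18 plate 2 (0.0411). Rian lost its stage call in edgeR without E13 plate 1 (0.0556), P4 plate 2 (0.0581), P7 plate 1 (0.0572) or P7 plate 2 (0.0517). Between E11 and P7, 5 of 10 passed in all kept wells, 3 higher and 2 lower, where 28.6% of all genes did (15.4% higher and 13.2% lower). The log2 fold changes in edgeR were 1.98 for Meg3 (SE 0.468, adjusted p = 0.0096), 0.76 for Mirg (SE 0.250, 0.0405), 1.24 for Peg3 (SE 0.234, 0.00299), -5.40 for Dlk1 (SE 1.17, 0.00617) and -5.83 for Cdkn1c (SE 0.331, 3.42e-06). Those that did not pass were Snrpn (1.05, adjusted p = 0.0549), Rian (1.09, 0.168), Igf2 (3.11, 0.187), H19 (-1.82, 0.247) and Ndn (-0.36, 0.461), in edgeR. Over 24 alternatives Snrpn passed in 7, Rian in 5, Igf2 and H19 in 2 each and Ndn in 1. Peg3 and Cdkn1c passed in 24 of 24 alternatives there, Dlk1 missed without P7 plate 2 (-4.56, adjusted p = 0.0538), Meg3 without E11 plate 1 (2.02, 0.0752) or E11 plate 2 (1.97, 0.0826), and Mirg passed in 12 of 24, missing among others without either plate of E11, P4 or P7, E15 plate 1 or E18 plate 1 (0.61 to 0.94).

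Meg3, a nuclear long non-coding RNA, is the first of the maternally expressed transcripts of the chromosome 12 cluster. In Pou4f1-positive wells it stood at 1729 and 1652 CPM on the E11 plates and 1389 CPM at E12. The E13 plates held 650.2 and 1009.6 CPM, the E15 plates 411 and 861 CPM and the E18 plates 637 and 1639 CPM. After birth it stood at 4591 and 5162 CPM at P4, 6188 and 6815 CPM at P7, and 3645 and 4384 CPM in the adult. The 6 postnatal and adult plates lay above all 9 embryonic plates, and the 2 plates of E13, E15 and E18 differed more from each other in ratio than those of E11 or P7. Mean levels in the series were 3.85 times higher at P7 than at E11, and 4.29 times higher at P4 than at E18. The C57BL/6 E18 plates held 1510 to 3215 CPM of Meg3. The log2 fold changes were 2.01 (SE 0.456, adjusted p = 0.00505, edgeR) from E11 to P7 and 2.23 (SE 0.460, adjusted p = 0.00622, edgeR) from E18 to P4. Where leaving out a plate leaves a stage with 1 plate, here and in the stage comparisons below, that plate has no spread of its own and is taken to vary like the other stages. Without either E11 plate the E11 to P7 change missed the threshold (2.00 and adjusted p = 0.0538 in edgeR without plate 1, 1.98 and 0.0555 without plate 2). Without E18 plate 2 the E18 to P4 change of Meg3 was 3.24, with an adjusted p of 0.00101 in edgeR, and without the 3 plates that stood apart it was 1.68 (0.0164). Fitted on the 4 plates of E18 and P4 alone it was 2.15, with an adjusted p of 0.0572 in edgeR. From P7 to the adult the log2 fold change was -0.81 (SE 0.442, adjusted p = 0.336, edgeR), and the plates of the 2 ages did not overlap.

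Rian, a non-coding RNA that hosts small nucleolar RNAs as well as miRNAs, followed a like course at a lower level. It stood at 194 and 160.4 CPM at E11 and 129 CPM at E12. At E13 it was at 68.3 and 117 CPM, at E15 at 46.8 and 103 CPM, and at E18 at 65.0 and 222 CPM. The later plates held 308 and 387 CPM at P4, 383 and 356 CPM at P7, and 365 and 233 CPM in the adult. The E18 plates stood further apart than those of any other stage. Changes from E11 to P7 (log2 fold change 1.12, SE 0.488, adjusted p = 0.0921, edgeR) and from E18 to P4 (1.39, SE 0.502, adjusted p = 0.0681, edgeR) did not pass, although the plates compared did not overlap. The E11 to P7 change of Rian passed without the 3 plates that stood apart (1.13, adjusted p = 0.0103, edgeR), and without E18 plate 1 or E18 plate 2 alone (1.14 and 1.17, adjusted p of 0.0225 and 0.0170 in edgeR). Its E18 to P4 change passed without E18 plate 2, with 1 E18 plate left (2.73, adjusted p = 0.00332, edgeR), and, barely, without either E15 plate (1.44 in both cases, adjusted p of 0.0428 and 0.0430 in edgeR), but was 0.76 and did not pass without the 3 plates (adjusted p = 0.198, edgeR).

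Mirg, the last host gene of the cluster and the one with the most miRNAs, was lowest from E15 to E18. It stood at 77.2 and 59.1 CPM at E11, 108 CPM at E12 and 37.6 and 63.3 CPM at E13. The E15 plates held 17.5 and 23.3 CPM and the E18 plates 34.3 and 22.7 CPM. It then stood at 76.3 and 93.9 CPM at P4, 124 and 107 CPM at P7, and 133 and 106 CPM in the adult. All 6 postnatal and adult plates lay above both E15 and both E18 plates of the series, and E12 lay among them. The C57BL/6 E18 plates held 32.7 to 82.3 CPM of Mirg, and the highest, the plate of both sides, lay above P4 plate 1. In the series the mean was 2.39 times lower at E18 than at E11, and from E18 to P4 it was 2.99 times higher (log2 fold change 1.78, SE 0.291, adjusted p = 0.00187, edgeR). The change of Mirg from E11 to P7 was smaller (0.83, SE 0.247, adjusted p = 0.0211, edgeR). It missed the threshold without any 1 of its 4 plates: edgeR gave 1.00 (adjusted p = 0.0623) without E11 plate 1, 0.66 (0.194) without E11 plate 2, 0.69 (0.165) without P7 plate 1 and 0.95 (0.0578) without P7 plate 2. It also missed it without wells that held 3 or more vascular and fibroblast genes (0.79, adjusted p = 0.0745, edgeR).

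Dlk1, the paternally expressed gene of the same cluster, went the other way from Meg3 across birth, while both were lower at E15 than at E11. In Pou4f1-positive wells it stood at 29.9 and 21.1 CPM at E11, 44.5 CPM at E12 and 32.1 and 294 CPM at E13. The E15 plates held 12.5 and 3.15 CPM and the E18 plates 36.8 and 19.4 CPM. From P4 on it was nearly lost, with 0.351 and 0 CPM at P4, 0.135 and 0 CPM at P7, and 1.80 and 0.747 CPM in the adult. E13 plate 2, which also held the most vascular and choroid plexus marker RNA, was the single high plate, and embryonic and later plates of the series did not overlap. The C57BL/6 E18 plates held 0 to 18.5 CPM of Dlk1. At E11 there were 245 counts and at P7 1 count, a ratio of 329.7 once scaled to the totals (exact 95% interval 58.6 to 13077, counting error only). Between E18 and P4 the counts were 54 and 2, a ratio of 158 (41.8 to 1340.5). The fitted log2 fold changes were -7.76 (SE 1.37, adjusted p = 0.00104, edgeR) and -6.91 (SE 1.36, adjusted p = 0.00492, edgeR). The later plates held few counts of Dlk1, and the size of its change moved with single plates: the E11 to P7 value was -9.34 without P7 plate 1 and -7.14 without P7 plate 2, and the E18 to P4 value -9.32 without P4 plate 1 and -5.89 without P4 plate 2, each below an adjusted p of 0.05 in edgeR.

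Peg3, a zinc-finger protein with roles in growth and maternal behaviour, was lowest at E15 and on E13 plate 2 and higher after birth. It stood at 191 and 169.9 CPM at E11, 201 CPM at E12, 157 and 67.8 CPM at E13, 65.5 and 101 CPM at E15 and 103 and 134 CPM at E18. It reached 275 and 271 CPM at P4, 375 and 454 CPM at P7, and 466 and 451 CPM in the adult. No postnatal plate overlapped an embryonic one. The mean was 2.30 times higher at P7 than at E11 (log2 fold change 1.26, SE 0.344, adjusted p = 0.0135, edgeR) and 2.30 times higher at P4 than at E18 (1.35, SE 0.355, adjusted p = 0.0199, edgeR). Each of these Peg3 calls was lost without single plates. The E11 to P7 change had an adjusted p in edgeR of 0.0884 without E11 plate 1, 0.116 without E11 plate 2, 0.0533 without P7 plate 1 and 0.0941 without P7 plate 2, with values from 1.14 to 1.36. The E18 to P4 change had an adjusted p in edgeR of 0.126 when E18 plate 1 was left out, 0.0716 without P4 plate 1 and 0.0846 when the other P4 plate was left out, with values from 1.13 to 1.44, and 0.0510 (1.32) without wells of 3 or more vascular and fibroblast genes.

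Snrpn was the member with the steadiest level before birth. Its protein SmN takes the place of SmB in the spliceosome of neurons. It stood at 433 and 461 CPM at E11, 772 CPM at E12, 514 and 352 CPM at E13, 473 and 459.6 CPM at E15, and 422 and 538 CPM at E18. After birth it held 805 and 798 CPM at P4, 965 and 824 CPM at P7 and 1265 and 948 CPM in the adult. The E12 plate alone came near the postnatal plates, and all other embryonic plates lay clearly below them. The series mean was 2.00 times higher at P7 than at E11 (log2 fold change 1.06, SE 0.255, adjusted p = 0.00686, edgeR) and was 1.67 times higher at P4 than at E18 (0.90, SE 0.256, adjusted p = 0.0281, edgeR). For Snrpn the E11 to P7 call was lost without E11 plate 1 (0.98, adjusted p = 0.0943), E11 plate 2 (1.12, 0.0624) or P7 plate 1 (0.91, 0.0878), and the E18 to P4 call without E18 plate 1 (0.68, 0.176), P4 plate 1 (0.96, 0.0955) or P4 plate 2 (0.97, 0.118), all in edgeR, and in a fit of the 4 plates alone (0.81, 0.105). In all kept wells the E11 to P7 change was 1.05 with an adjusted p of 0.0549 in edgeR, and DESeq2 gave 0.0323. The row of Gm38393, a gene model on the same strand within Snrpn, held 9741 counts against 40208 of Snrpn. Whether reads of this locus were split between the rows or counted in both was not tested.

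Ndn, which codes for a MAGE-family protein of postmitotic neurons, was highest at the start. It stood at 587 and 579 CPM at E11 and 581 CPM at E12. At E13 the plates held 364 and 218 CPM, with 249 and 284 CPM at E15 and 212 and 342 CPM at E18. The later plates lay between, at 404 and 477 CPM at P4, 425 and 449.9 CPM at P7, and 425 and 485 CPM in the adult. In the series the mean was 2.10 times lower at E18 than at E11, and the series plates of these stages did not overlap. The E18 plates of the other mouse line held 328 to 582 CPM of Ndn, with a median of 413 CPM. The highest of them, the plate of both sides, lay between the E11 plates of the series. Ndn passed the test over all stages in Pou4f1-positive wells (adjusted p = 0.0234, edgeR), but not without E11 plate 1 (0.0551) or plate 2 (0.0581), nor without wells of 3 or more vascular and fibroblast genes (0.0656). Its E11 to P7 change was -0.35 (SE 0.303, adjusted p = 0.395, edgeR) and its E18 to P4 change 0.82 (SE 0.309, adjusted p = 0.0790, edgeR). Without E18 plate 2, and so with a lone E18 plate taken to vary like the other stages, the E18 to P4 change of Ndn was 1.36, with an adjusted p of 0.0165 in edgeR.

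Cdkn1c showed the steepest steady decline of the abundant members. Its protein, p57, stops the cell cycle in cells that leave division. In Pou4f1-positive wells it stood at 443 and 518 CPM at E11, 404 CPM at E12, 341 and 327 CPM at E13, 277 and 165 CPM at E15 and 145 and 68.9 CPM at E18. From P4 on it was near the bottom, with 6.31 and 5.85 CPM at P4, 6.20 and 3.13 CPM at P7 and 5.39 and 6.22 CPM in the adult. Each embryonic stage with 2 plates lay below the one before it with no overlap, and the 6 later plates lay below all of them. The mean was 4.50 times lower at E18 than at E11 and 17.5 times lower again at P4, and over the whole span to P7 it was 103 times lower. The log2 fold changes were -6.58 (SE 0.417, adjusted p = 1.04e-06, edgeR) from E11 to P7 and -3.92 (SE 0.387, adjusted p = 2.22e-04, edgeR) from E18 to P4, and both passed in 25 of 25 alternatives. Without the 3 plates that stood apart the E18 to P4 change of Cdkn1c was -3.39 (adjusted p = 6.11e-04, edgeR).

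Igf2, a growth factor whose enhancers are shared with H19, varied widely between plates of a stage. In Pou4f1-positive wells Igf2 stood at 22.4 and 1.74 CPM at E11, 141 CPM at E12, 69.3 and 1065 CPM at E13, 6.86 and 0 CPM at E15 and 29.4 and 73.2 CPM at E18. The later plates held 24.4 and 0.633 CPM at P4, 21.4 and 5.34 CPM at P7 and 37.8 and 23.4 CPM in the adult. The plates of E11 and P7 overlapped, those of E18 and P4 did not, and E13 plate 2 lay far above the rest. Its test over all stages passed (adjusted p = 0.00609, edgeR) with that plate and not without it (0.251), nor without the 3 plates that stood apart (0.243). Its changes from E11 to P7 (0.24, SE 1.38, adjusted p = 0.911, edgeR) and from E18 to P4 (-1.97, SE 1.43, adjusted p = 0.356, edgeR) did not pass. On E11 plate 1 a single well held 82 of 111 counts of Igf2 in Pou4f1-positive wells. Single wells also held 15 of 24 counts on E18 plate 1, 60 of 90 on E18 plate 2 and 103 of 139 on P4 plate 1. On adult plate 2 a single well held 83 of 94. Igf2 and the model Gm49394 on its strand held equal values in 695 of the 698 series wells with either (tolerance 1e-06), so that reads were counted in both rows.

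H19 was highest at E12 and on E13 plate 2, and its test over all stages passed (adjusted p = 4.06e-04, edgeR) and did so in 24 of 24 alternatives. It stood at 20.1 and 7.82 CPM at E11, 247 CPM at E12, 44.4 and 306 CPM at E13, 7.48 and 2.20 CPM at E15 and 14.7 and 35.6 CPM at E18. After birth it held 4.91 and 2.37 CPM at P4 and 5.12 and 2.76 CPM at P7, and no count was found on the adult plates. Over the adult group, 0 counts allowed at most 0.656 CPM (3 counts), which put the adult at least 6.29-fold lower than P7 when the counts of the P7 plates were pooled. The changes of H19 from E11 to P7 (-1.72, SE 0.843, adjusted p = 0.136, edgeR) and from E18 to P4 (-2.70, SE 0.935, adjusted p = 0.0619, edgeR) missed the threshold. Both passed without the 3 plates that stood apart (-1.71 and -3.19, adjusted p of 0.0257 and 0.0119 in edgeR) and without E13 plate 1 (-1.70 and -2.66, adjusted p of 0.0479 and 0.0194 in edgeR); the E18 to P4 change also passed without E13 plate 2 (-2.65, 0.0245) and in DESeq2 (-2.75, 0.0161). At E12 a single well held 386 of 1126 H19 counts of the Pou4f1-positive wells and 149 of 644 Igf2 counts, and another held 184 of H19, 285 of Igf2 and 200 of 1841 Cdkn1c counts.

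Wells too shallow to be kept also held counts of the members, which bears on how a share of wells with a UMI can be read. At E12, 93 such wells with a median of 515 counts held H19 in 36.6% of wells (1037 CPM of their sum) and Igf2 in 14.0% (270 CPM). On E13 plate 2, 246 such wells with a median of 99.0 counts held Igf2 in 18.7% (1386 CPM), H19 in 13.8% (953 CPM) and Dlk1 in 10.6% (693 CPM). These levels were above those in the Pou4f1-positive wells of the same plates. The same was seen in other members: over the 10 members and 15 series plates, the level in shallow wells was at or above that in Pou4f1-positive wells in 63 of 150 cases, among them Snrpn on 13 plates, Igf2 on 11, Cdkn1c and Mirg on 8 each, and Meg3 and Rian on 1 each. Whether the counts in shallow wells came from free RNA or from damaged cells was not tested, so a share of wells with a UMI is not given as a share of wells that express the gene. On E11 plate 1, where the 75 shallow wells held no count of Igf2, H19 or Dlk1, the median was 40.0 counts and little could have been seen.

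The share of Pou4f1-positive wells with at least 1 UMI of a member was also counted. Because wells differed in depth, each was thinned to 2000 UMIs, with 138 shallower kept wells of the series left out. Thinned, Meg3 was found in 84.1% and 84.4% of wells at E11, 49.0% and 64.0% at E15 and 98.5% and 99.7% at P4, and unthinned in 100% of wells on all 4 plates of P4 and P7. Peg3 was found in 29.7% and 24.2% of thinned wells at E11, 9.5% and 15.7% at E15 and 50.3% and 61.1% at P7. For Rian the shares were 25.4% and 22.5% at E11, 8.2% and 13.5% at E15 and 51.0% and 41.2% at P7, and for Mirg 13.8% and 12.3%, 1.4% and 3.4%, and 23.0% and 19.5% at the same stages. In each of these 4 genes the share dipped at E15 and both P7 plates lay above both E11 plates. Snrpn was found in 56.2% and 55.6% of thinned wells at E11 and in 76.3% to 84.2% of wells on the 6 plates from P4 on. For Ndn the shares were 60.8% and 59.6% at E11, 25.7% and 46.8% at E18 and 55.7% and 56.4% at P4. Cdkn1c was found in 61.1% and 63.9% of thinned wells at E11, 38.1% and 33.0% at E15, 23.0% and 12.8% at E18 and at most 1.7% from P4 on. Unthinned, its share fell from 95.8% and 95.1% at E11 to between 4.2% and 14.3% on the later plates. Igf2 was found in 47.1% of thinned wells on E13 plate 2 and in at most 8.5% on any other plate, and H19 in 24.2% at E12 and 33.8% on E13 plate 2.

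**Figure D2:**
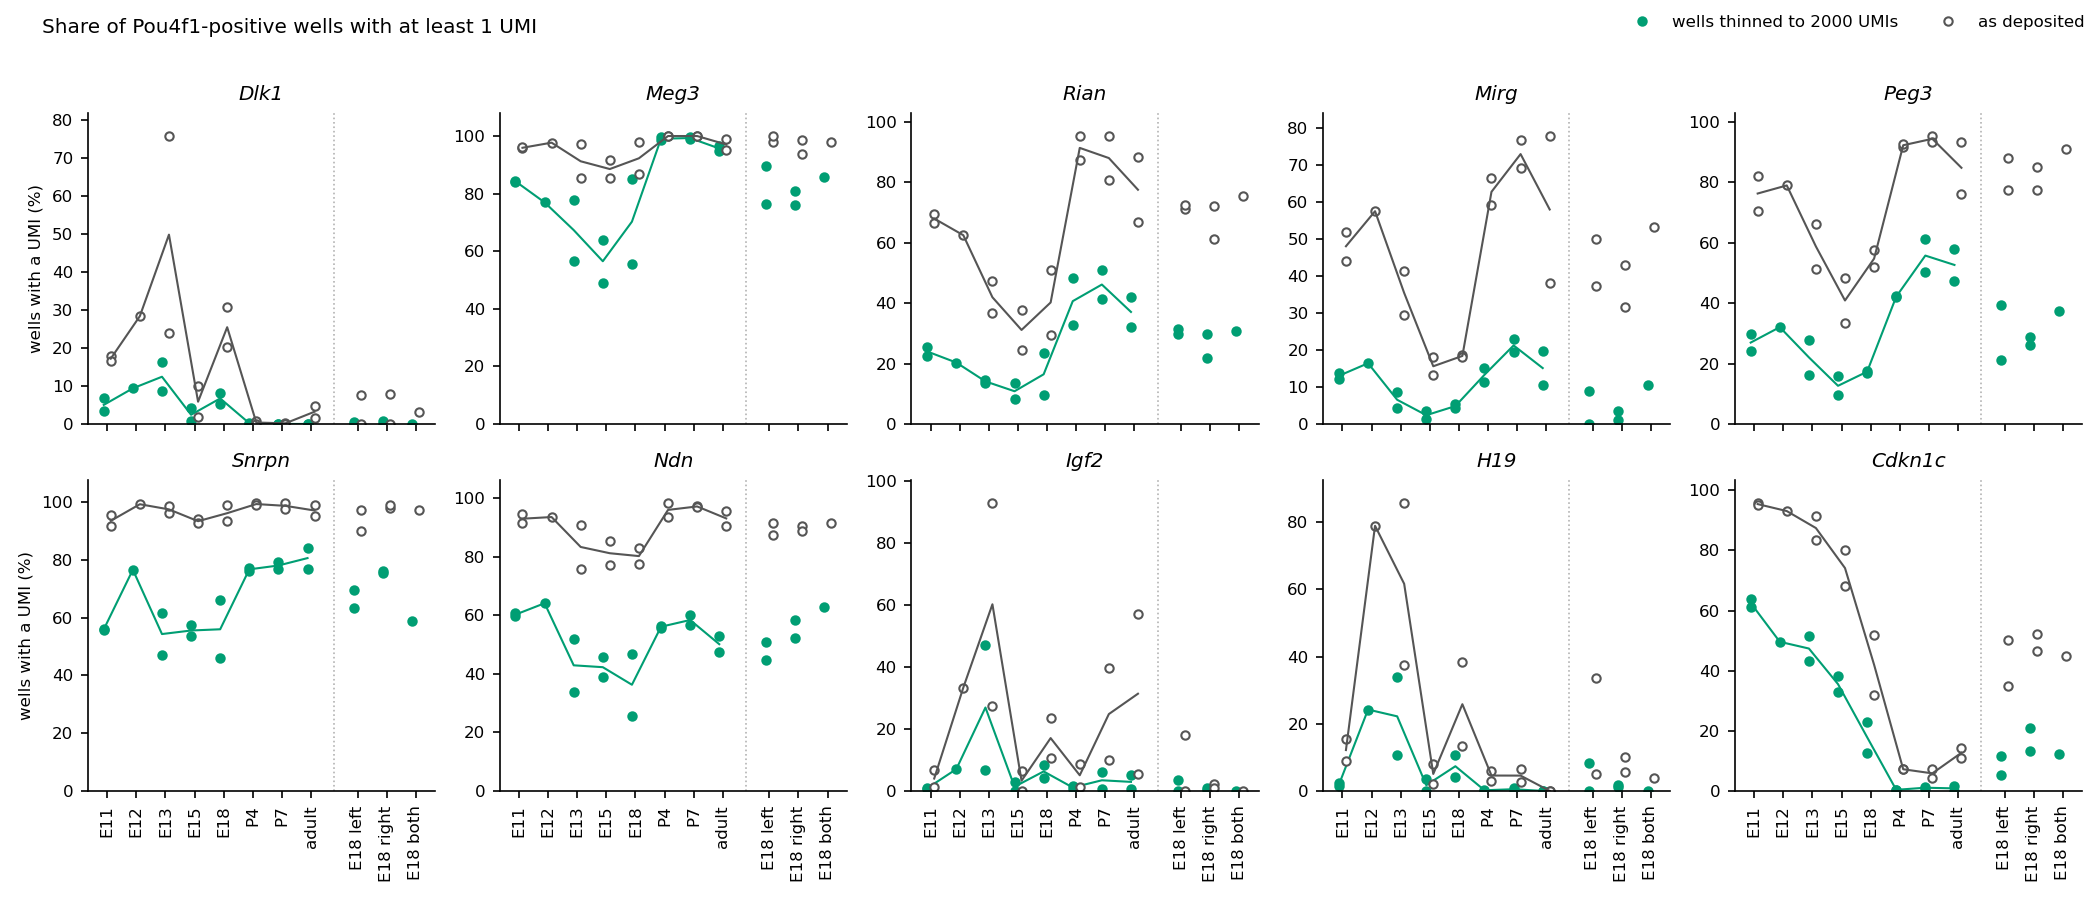
Share of Pou4f1-positive wells with at least 1 UMI of each member (percent, 1 point per plate) after thinning wells to 2000 UMIs (filled) and as deposited (open), by stage; lines join stage means and the C57BL/6 plates stand right of the dotted line. Thinned Meg3 shares run from 49.0% at E15 to 99.7% at P4, and thinned Cdkn1c shares fall from 63.9% at E11 to at most 1.7% from P4 on.

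Between Pou4f1-positive and Pou4f1-negative wells of the same plate in the series, members differed in both directions. With the plate as a term of the model, 9 of 10 members passed (5 higher and 4 lower in positive wells) where 35.8% of 10147 genes did (19.2% higher and 16.6% lower). Snrpn was higher by 1.03 on the log2 scale (SE 0.145, adjusted p = 2.33e-05, edgeR), on 14 of 15 plates. Rian was higher by 1.16 (SE 0.306, adjusted p = 0.00544), Meg3 by 1.09 (SE 0.325, adjusted p = 0.0121), Mirg by 0.95 (SE 0.357, adjusted p = 0.0430) and Ndn by 0.76 (SE 0.187, adjusted p = 0.00330), on 13, 10, 11 and 12 of 15 plates. Peg3 did not pass (0.35, SE 0.253, adjusted p = 0.301, edgeR). 4 members were lower in Pou4f1-positive wells, with log2 differences of -4.09 for Igf2 (SE 0.812, adjusted p = 6.39e-04, edgeR), -2.35 for H19 (SE 0.563, adjusted p = 0.00319), -1.97 for Dlk1 (SE 0.441, adjusted p = 0.00191) and -1.25 for Cdkn1c (SE 0.457, adjusted p = 0.0385). In this order they were lower on 13, 9, 10 and 10 of 15 plates and higher on 1, 4, 3 and 5. On P7 plate 1, Igf2 stood at 21.4 CPM in Pou4f1-positive and 6257 CPM in Pou4f1-negative wells, and on P4 plate 1 at 24.4 and 1124 CPM. The P4 values rest on single wells: 1 negative well held 208 of 215 counts, and 1 positive well held 103 of 139. Without the plate as a term, Dlk1 (-1.51, adjusted p = 0.231), H19 (-2.19, 0.0921) and Cdkn1c (-0.47, 0.663) did not pass in edgeR.

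Depth moved with this gate. Pou4f1-positive wells had a higher median count than negative wells on 20 of 20 plates, by 1.27 to 5.22 times. When each well was thinned to 2000 UMIs before the gate was set, 1029 of the 1722 series wells without Pou4f1 were wells that held it at full depth. In that comparison Meg3 (0.02, adjusted p = 0.946), Rian (0.01, 0.997), Mirg (0.17, 0.616), Ndn (0.15, 0.382) and Cdkn1c (-0.11, 0.722) no longer passed, and Snrpn (0.29, 0.0489) and Igf2 (-3.41, 3.86e-11) did, in edgeR. Dlk1 and H19 had too few counts there to be tested. Over the 26 alternatives Dlk1 could be tested in 24 and H19 in 16. The Mirg call was lost in 16 of 26 alternatives, among them leaving out E11 plate 1, E12, E13 plate 1, E18 plate 1 or any of the 6 later plates (0.78 to 0.99, adjusted p 0.0530 to 0.0927, edgeR). For Cdkn1c it was lost in 10 of 26, among them leaving out E18 plate 2 or any of the 6 later plates (-1.20 to -1.03, adjusted p 0.0557 to 0.0799, edgeR).

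By age, the positive and negative wells differed in another way for several members. On the 6 postnatal and adult plates Meg3 was higher in Pou4f1-positive wells throughout, by 1.88 to 2.82 on the log2 scale, and Rian by 2.07 to 2.75, while on the 9 embryonic plates Meg3 was higher on 4 and lower on 5. Rian was higher on 7 of the 9 embryonic plates, and Ndn on 6 of 9 embryonic and 6 of 6 later plates. Peg3 and Mirg were also higher on all 6 later plates, and on 4 and 5 of the 9 embryonic ones. Cdkn1c was lower in Pou4f1-positive wells on all 6 later plates (-4.67 to -2.19), and higher on 5 and lower on 4 of the embryonic plates. Snrpn was higher in Pou4f1-positive wells on 8 of 9 embryonic and 6 of 6 later plates. Dlk1 was lower in them on 9 of 9 embryonic plates. On the 6 later plates Dlk1 was higher on 3 and lower on 1, with at most 3 counts in the positive wells of a plate. Igf2 was lower on 8 of 9 embryonic and 5 of 6 later plates, and H19 on 6 of 9 and 3 of 6. The difference between embryonic and later plates was not tested.

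**Figure D3:**
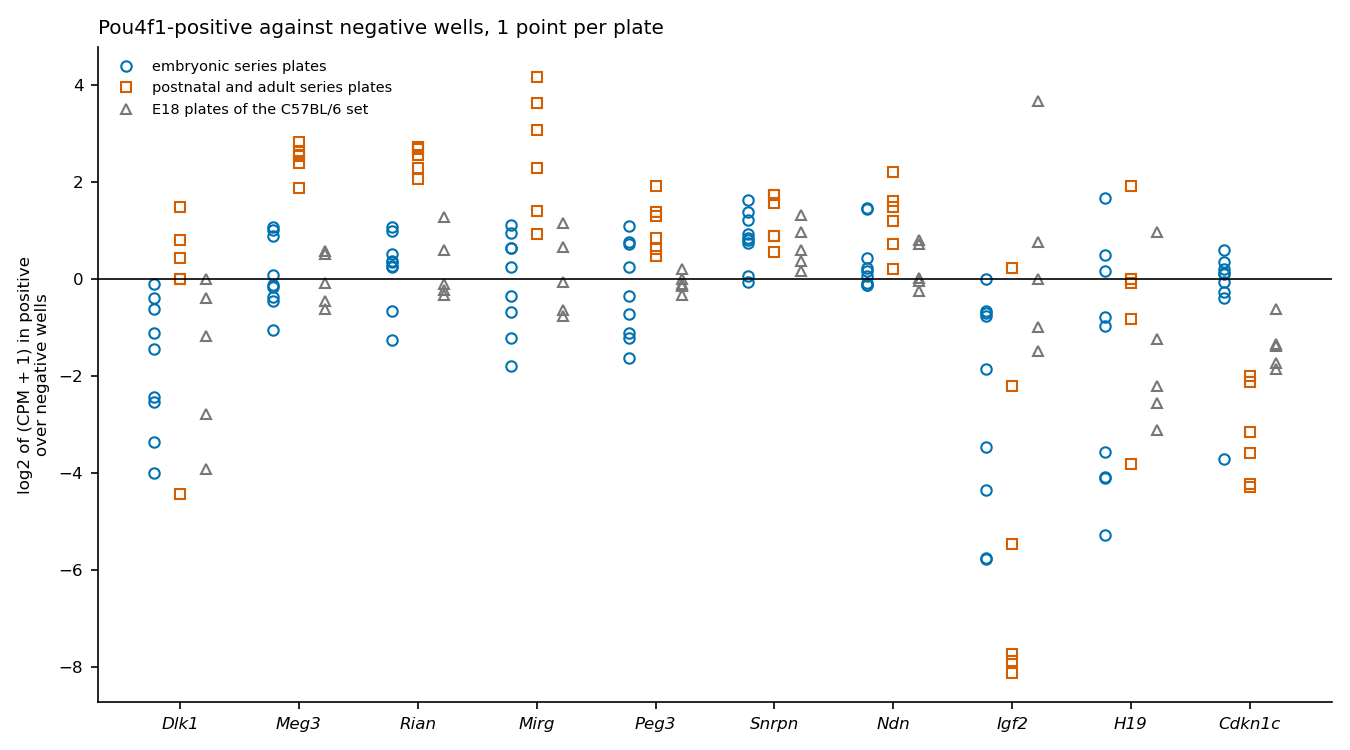
Level of each member in Pou4f1-positive over Pou4f1-negative wells of the same plate, as log2 of the ratio of (CPM + 1), 1 point per plate, for embryonic series plates, postnatal and adult series plates and the C57BL/6 E18 set; 0 marks equal levels. Snrpn lies above 0 on 14 of 15 series plates and Igf2 below 0 on 13 of 15.

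In the C57BL/6 E18 set the same comparison of wells gave 3 calls among the 9 members tested, where 17.5% of 12962 genes passed (6.7% higher and 10.8% lower). Snrpn was higher in Pou4f1-positive wells by 0.70 (SE 0.190, adjusted p = 0.0274, edgeR), on 5 of 5 plates. Cdkn1c was lower, at -1.36 (SE 0.155, adjusted p = 2.42e-04, edgeR) on 5 of 5 plates, and H19, at -1.83 (SE 0.473, adjusted p = 0.0208, edgeR) on 4 of 5. Thinned before the gate, Snrpn was higher by 0.50 (adjusted p = 0.00127) and Cdkn1c stood at -1.35 (adjusted p = 7.32e-06, edgeR). Dlk1 was at -2.10 (SE 0.676, adjusted p = 0.0604, edgeR), and passed with no filter on low counts (-1.93, adjusted p = 1.39e-04, edgeR), without wells of very high depth (-2.16, 0.0404, edgeR) and in DESeq2 (-2.42, adjusted p = 0.00585). The other members tested had adjusted p of at least 0.438 in edgeR. The Snrpn call was lost without right plate 2 (0.63, adjusted p = 0.0914) or the plate of both sides (0.72, 0.0969), and the H19 call without left plate 1 (-2.07, 0.0683), right plate 1 (-1.58, 0.0809) or the plate of both sides (-1.41, 0.119); neither passed without the plate as a term (0.62 and 0.151 for Snrpn, -1.54 and 0.273 for H19). Igf2 had too few counts to be tested.

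Left and right habenula, with 2 plates each, gave no call for any gene in the main fit. Of 14614 genes, 0 passed (0%) in edgeR, 155 had an unadjusted p under 0.05, and 28 passed with no filter on low counts. DESeq2 also gave 0. On simulated data for this comparison, 54% of 2-fold and 94% of 4-fold changes were recovered, in genes with a mean above 20 CPM. In Pou4f1-positive wells Meg3 stood at 2089 and 2420.4 CPM on the left and 2032 and 1510.4 CPM on the right, and Snrpn at 637 and 616 CPM against 754 and 649 CPM. Cdkn1c stood at 75.8 and 61.2 CPM on the left and 86.6 and 108 CPM on the right, a log2 difference of right over left of 0.47 (SE 0.194, unadjusted p = 0.0397 and adjusted p = 1.00, edgeR). Rian stood at 204 and 248 CPM on the left and 209.8 and 124 CPM on the right, Mirg at 38.4 and 39.3 CPM against 45.0 and 32.7 CPM, Peg3 at 225 and 184 CPM against 191 and 177 CPM, and Ndn at 413 and 328 CPM against 415 and 402 CPM. The sides overlapped in each of these 4 genes, and on the plate of both sides Meg3 (3215 CPM), Rian (326 CPM), Mirg (82.3 CPM), Peg3 (254 CPM) and Ndn (582 CPM) lay above all 4 plates of a single side. Dlk1 stood at 4.08 and 0 CPM on the left and 18.5 and 0 CPM on the right, and Igf2 at 13.1 and 0 CPM against 11.7 and 0.689 CPM. H19 stood at 44.9 and 1.87 CPM against 4.03 and 11.4 CPM (-1.79, SE 0.910, adjusted p = 1.00, edgeR). The H19 difference passed when left plate 2 or right plate 2 was left out (-2.61 and -2.63, adjusted p of 0.00856 and 0.0145 in edgeR), each time with a lone plate on 1 side that is taken to vary like the other side, and with no filter (-1.78, 0.015). Without left plate 1 it was 1.91 (adjusted p = 0.540). On right plate 1, 1 well held 58 of 87 counts of Dlk1 and no count of Igf2, and another held 50 of 55 counts of Igf2 and no count of Dlk1. In these wells erythroid markers summed to 2327 and 19802 CPM on the left and 3902 and 278 CPM on the right, and their part in the comparison was not tested.

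In the series most Igf2 and H19 UMIs lay in wells with vascular and fibroblast transcripts. There, 430 of 3729 kept wells (11.5%) held at least 3 of 14 listed vascular and fibroblast genes, such as the endothelial genes Cldn5 and Pecam1 and the collagen genes Col1a1 and Col3a1, and they held 13.2% of all counts. These wells held 7146 of 7743 UMIs of Igf2 (92.3%), 67.1% of H19 and 50.9% of Dlk1. The Dlk1 share rests on E13 plate 2, where they held 568 of 624 Dlk1 UMIs. Without that plate, an alternative chosen after seeing the data, these wells held 23.4% of the Dlk1, 59.3% of the H19 and 90.9% of the Igf2 UMIs, and 11.2% of all counts. Leaving out any other plate gave 50.4% to 56.9% for Dlk1, 65.9% to 70.3% for H19 and 91.4% to 93.0% for Igf2. Their share of the other 7 members was 10.3% to 14.6%, near their share of all counts, with 13.5% for Cdkn1c. Inside these wells Igf2 stood at 922 CPM against 11.7 CPM in the other kept wells, H19 at 238 against 17.7 CPM and Dlk1 at 101 against 14.7 CPM (33.4 against 13.8 CPM without E13 plate 2), while Cdkn1c was at 172 and 167 CPM. With a limit of 2 genes (918 wells) the Igf2 share was 94.5%, and with a limit of 4 genes (237 wells) it was 90.2%; 488 wells held exactly 2 and 193 exactly 3. The share of wells past the limit ran from 0% on E11 plate 2 and E15 plate 2 to 63.5% on E13 plate 2. On the 13 other series plates these wells held 66.2% to 95.8% of the Igf2 UMIs. Their H19 share varied more between plates, with 87.6% on E13 plate 2, 62.5% at E12, 31.5% on E11 plate 1 and 3.45% on P4 plate 1.

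All kept wells and Pou4f1-positive wells differed in Igf2 on several plates with many such wells. On P7 plate 1, where 28.5% of wells were past the limit, Igf2 stood at 293 CPM in all kept wells and at 21.4 CPM in Pou4f1-positive wells. On E18 plate 2, with 24.5%, it stood at 347 and 73.2 CPM, while on adult plate 2, with 19.9%, it stood at 22.6 and 23.4 CPM. Without these wells 4 of the members passed between Pou4f1-positive and negative wells in the series (Meg3, Rian, Snrpn and Ndn), where 27.8% of 8174 genes did, Mirg (0.87, adjusted p = 0.0863) and Cdkn1c (-0.93, 0.0831) did not pass in edgeR, and Igf2, H19 and Dlk1 had too few counts to be tested. In the C57BL/6 set 31 of 1082 wells were past the limit, with 13 of the 14 genes in that table, and they held 36.2% of 163 Igf2 UMIs, 2.6% of H19 and 1.5% of Dlk1, where they held 2.98% of all counts. The H19 and Dlk1 shares there were near the share of all counts. The Igf2 share rests on single plates: it was 83.3% (50 of 60 UMIs) without left plate 1 and 8.33% (9 of 108) without right plate 1, where 1 well past the limit held the 50 UMIs.

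**Figure D4:**
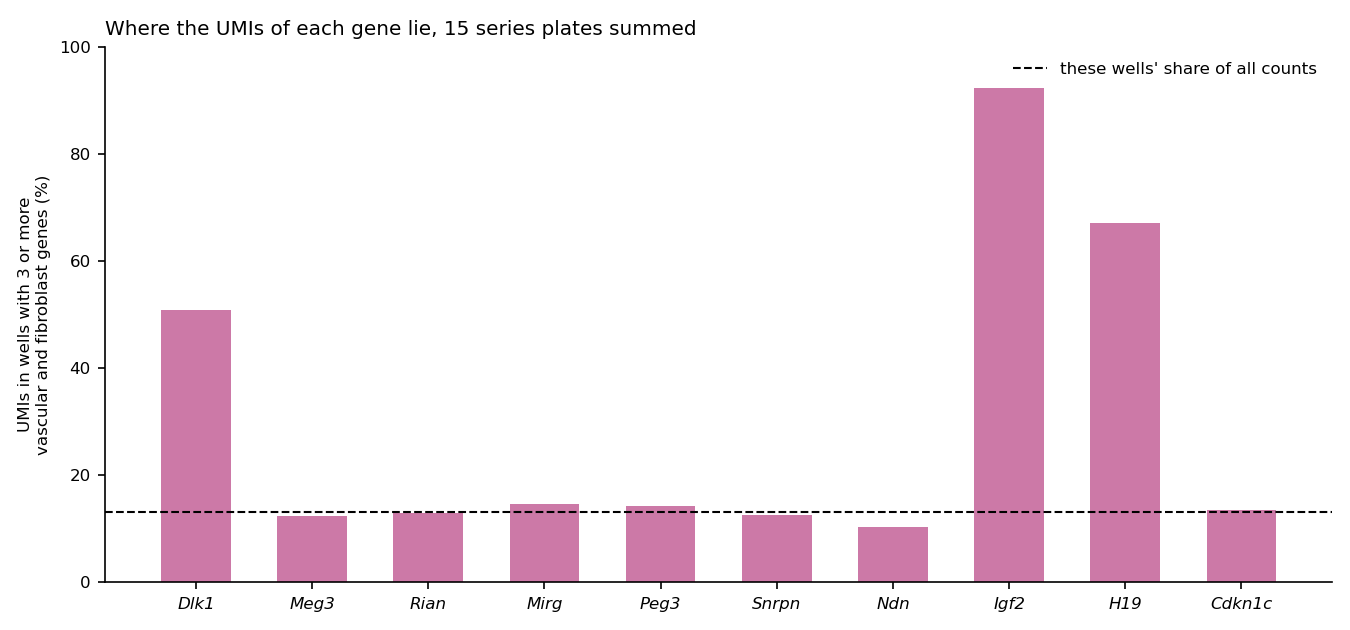
Share of each member's UMIs (percent, 15 series plates summed) that lay in the 430 kept wells with at least 3 vascular and fibroblast genes; the dashed line is the 13.2% of all counts held by those wells. Igf2 (92.3%), H19 (67.1%) and Dlk1 (50.9%, and 23.4% without E13 plate 2) stand above the line and the other members near it.

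The files also count unspliced molecules, whose reads fall in introns. For Snrpn the unspliced share of UMIs in Pou4f1-positive wells was 16.9% and 16.4% at E11, 10.6% on the E12 plate, and 18.1% and 17.2% on those of E13. The E15 plates showed 19.4% and 26.6%, and the E18 plates 24.7% and 26.8%. The P4 plates then showed 8.26% and 9.80%, the P7 plates 7.13% and 8.47%, and the adult plates 6.47% and 5.69%. The 6 later plates lay below all 9 embryonic plates. Spliced Snrpn stood at 356 ± 54.4 CPM at E18 and 729.9 ± 12.6 CPM at P4 (SD, n = 2), and unspliced Snrpn at 124 ± 28.5 and 72.4 ± 8.35 CPM (SD, n = 2). So the spliced level was higher and the unspliced level lower at P4 than at E18, without overlap of the plates. Over all genes of the 20 plates the unspliced share ran from 17.7% to 29.2% of UMIs per plate in all kept wells. In the C57BL/6 E18 set it was 16.0% and 28.7% for Snrpn on the left, 18.0% and 19.3% on the right and 31.0% on the plate of both sides.

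A large part of the Rian and Mirg UMIs was counted as unspliced, at 31.2% to 55.9% and 44.6% to 67.9% of their UMIs on the series plates. Meg3 was almost wholly counted as spliced, with 0.162% to 0.888% unspliced UMIs, and no unspliced UMI was counted for Ndn, which has no intron in its known transcript, or for H19.

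**Figure D5:**
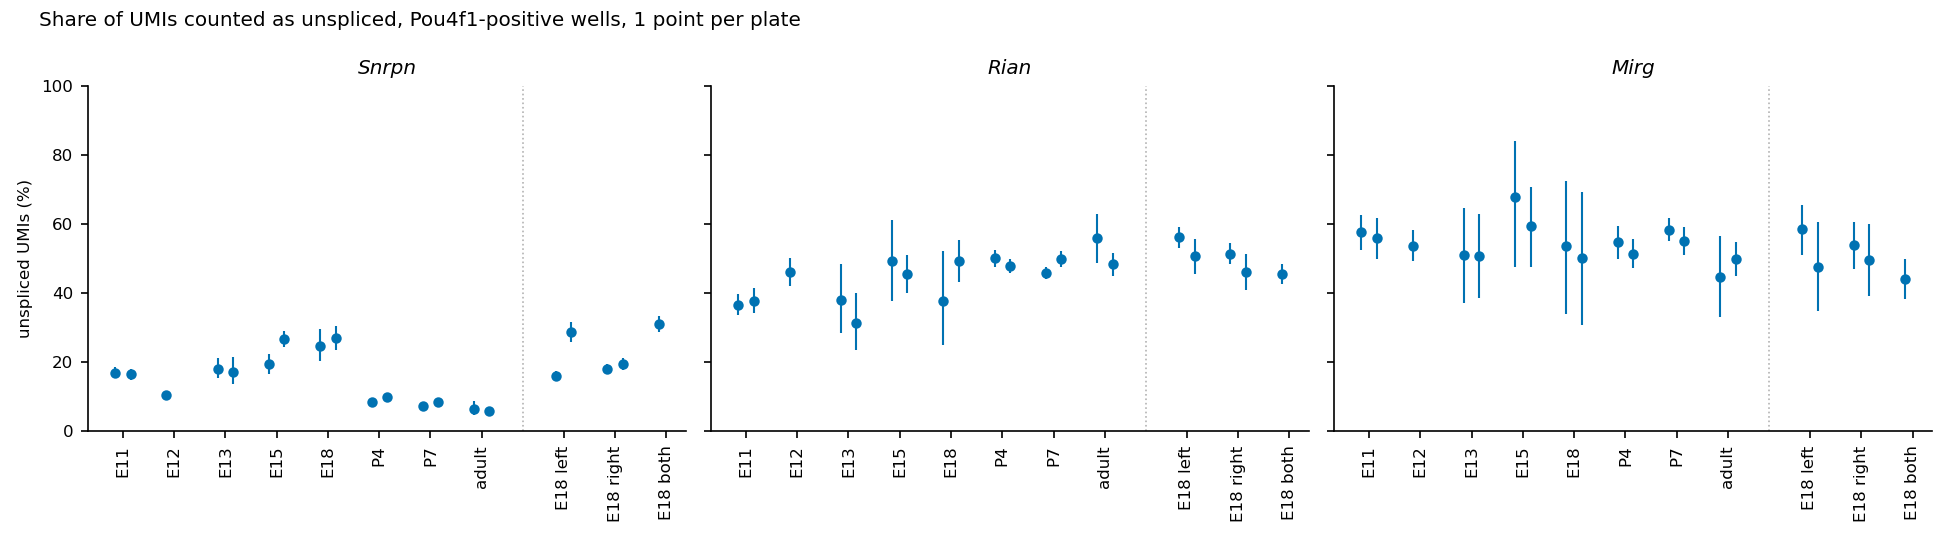
Unspliced share of the UMIs of Snrpn, Rian and Mirg in Pou4f1-positive wells, 1 point per plate with its exact 95% binomial interval (counting error only), by stage, with the C57BL/6 plates right of the dotted line. Snrpn falls from 24.7% and 26.8% at E18 to 9.80% or less on the 6 later plates, while Rian and Mirg stay between 31.2% and 67.9% on the series plates.

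Among other imprinted genes, changes with stage were also common. Of 51 listed genes, 40 could be tested in Pou4f1-positive wells and 29 differed between stages (72.5%, against 49.4% of all genes). From E11 to P7, 12 of 23 genes listed as paternally expressed passed (52.2%, 6 higher and 6 lower), where 35% of all genes did (18.8% higher and 16.2% lower). Of 17 genes listed as maternally expressed, or mainly so in brain or placenta, 7 passed (41.2%, all 7 higher). Allele use was not measured, so a gene's listed class may not hold in these cells. The difference between the parental classes was not tested. Rasgrf1, a Ras exchange factor, stood at 0.63 ± 0.03 CPM at E11, 53.9 ± 2.64 CPM at P7 and 323 ± 207 CPM in the adult (SD, n = 2), with a log2 fold change from E11 to P7 of 6.40 (SE 0.610, adjusted p = 1.51e-05, edgeR). Kcnk9, a potassium leak channel, stood at 0.30 ± 0.43 CPM at E11 and 88.2 ± 2.22 CPM at P7 (SD, n = 2; 8.04, SE 0.732, adjusted p = 1.04e-05, edgeR). Both also rose between E18 and P4, Rasgrf1 by 6.10 and Kcnk9 by 2.84 (adjusted p of 0.00135 and 0.00624 in edgeR). Sfmbt2 rose by 3.28 and Zrsr1 by 1.62, Mkrn3 by 1.83, Grb10 by 1.10 and Atp10a by 2.74 from E11 to P7. Ppp1r9a, Trappc9 and Cobl rose by 0.89, 0.83 and 2.27, while Peg12 (-4.45) and Peg10 (-2.56) fell.

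From E18 to P4, 13 of the 40 passed, 12 higher and 1 lower, where 20.4% of all genes passed. Besides Rasgrf1 and Kcnk9, the highest-ranked were Grb10 (1.22), Impact (1.15), Ago2 (0.80), Sfmbt2 (1.65), Magel2 (2.86), Kcnq1ot1 (0.94), Peg13 (1.15), Blcap (0.84) and Zim1 (2.33). From P7 to the adult 8 of 40 passed, 5 higher and 3 lower, where 3.68% of all genes did and 0 of the 10 members. Mkrn3 fell from 23.4 ± 1.60 to 0.12 ± 0.18 CPM (SD, n = 2; -6.61, adjusted p = 8.77e-04, edgeR). Peg10 rose from 3.10 ± 1.34 to 47.7 ± 16.5 CPM (SD, n = 2; 3.77, adjusted p = 0.00501, edgeR), and Nap1l5 (2.45), Rasgrf1 (2.40), Impact (1.20) and Ddc (2.72) rose as well, while Sfmbt2 fell by 1.70 on the log2 scale. Adult plate 1, with its few positive wells, is 1 of the 2 adult plates behind these values.

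Between Pou4f1-positive and negative wells of the series, 11 of 27 other imprinted genes passed (40.7%), 9 higher and 2 lower, near the 35.8% of all genes (19.2% higher and 16.6% lower). Snhg14, the long transcript downstream of Snrpn, was higher by 1.43 (SE 0.185, adjusted p = 1.06e-05, edgeR), and Peg13 by 1.30, Usp29 by 1.34, Inpp5f by 0.79, Blcap by 0.58, H13 by 0.49 and Ube3a by 0.44. Airn (-2.70) and Mest (-1.20) were lower. In the C57BL/6 set 6 of 38 passed (15.8%), near the 17.5% of all genes: Snhg14 (0.77), Usp29 (0.65) and Peg13 (0.63) were higher and Nap1l5 (-1.12), Rasgrf1 (-1.31) and Kcnq1ot1 (-0.53) lower, all with an adjusted p under 0.05 in edgeR.

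Genes that act with the members moved as follows. In the insulin-like growth factor axis, 10 of 14 tested genes passed from E11 to P7 in Pou4f1-positive wells (71.4%, against 35% of all genes), 2 higher and 8 lower. The 3 mRNA-binding proteins named for their binding to Igf2 mRNA were among them. Igf2bp1 stood at 181 ± 5.38 CPM at E11 (SD, n = 2) and had no count at P7, where 3 counts over the group allow 0.233 CPM, so that it was at least 776-fold lower. Igf2bp3 fell from 314 ± 1.32 to 1.63 ± 0.74 CPM (SD, n = 2) and Igf2bp2 from 155 ± 9.12 to 14.6 ± 1.97 CPM (SD, n = 2), log2 fold changes of -7.45 and -3.33 (adjusted p of 6.33e-07 and 8.69e-06 in edgeR). From E18 to P4 they changed by -4.72, -4.69 and -1.52. Of 4 other CDK inhibitors tested, 1 passed from E11 to P7 (25%, below the 35% of all genes): Cdkn2d fell by 1.04 on the log2 scale (SE 0.185, adjusted p = 0.00113, edgeR). Of 12 Notch ligands, receptors and targets, to which Dlk1 is related, 5 passed from E11 to P7 (41.7%, near the 35% of all genes), 1 higher and 4 lower, among them Jag1 (-3.73), Dll3 (-2.52) and Dll1 (-4.58). Dlk2, the closest relative of Dlk1, changed by 1.99 from E18 to P4 (SE 0.518, adjusted p = 0.0192, edgeR) and by -2.19 from P7 to the adult (SE 0.533, adjusted p = 0.0438, edgeR).

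In Pou4f1-positive against negative wells of the series, where 35.8% of all genes passed, 6 of 12 tested genes of the insulin-like growth factor axis passed (all 6 lower), 1 of 2 CDK inhibitors (higher) and 9 of 10 Notch genes (all 9 lower). Among them Igfbp4 (-3.14), Igfbp2 (-2.49) and Irs1 (-1.18) were lower and Cdkn2d was higher (0.67), and the Notch genes Hes5 (-3.68), Notch2 (-3.33) and Notch1 (-3.49) were lower. In the C57BL/6 set, where 17.5% of all genes passed, the counts were 6 of 14, 1 of 3 and 6 of 11, all lower. There Igfbp5 (-1.13), Igfbp2 (-1.51), Igfbp4 (-2.29), Cdkn1a (-1.27), Hes5 (-2.52), Notch1 (-2.64) and Notch3 (-2.64) were lower. All these had an adjusted p under 0.05 in edgeR.

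The genes most like each member were ranked by Pearson's r of log2(CPM + 1) over the 15 series plates in Pou4f1-positive wells, among 8279 genes with a mean of at least 20 CPM. The plates of a stage share an age and 3 plates stood apart, so the values are a description only. For Cdkn1c the likest were Igf2bp1 (0.99), Igf2bp3 (0.99) and Syne2 (0.98), and for Dlk1 they were Itgb1 (0.97), Palld (0.96) and Cdc42ep4 (0.96). Meg3 was likest to Adap1 (0.98), Vdac1 (0.97) and Trub1 (0.97), and Rian to Meg3 (0.96), Gm37899 (0.95) and Adap1 (0.94). For Mirg they were Ufl1 (0.93), Cabp1 (0.92) and Sharpin (0.92), and for Peg3 App, Cystm1 and Prkar1b (0.97 each). Snrpn was likest to Snap47 (0.98), Snx32 (0.97) and Tmem196 (0.97), and Ndn to Tmod2 (0.95), Mycbp2 (0.94) and Ntrk3 (0.93). For H19 they were Eif4e2 (0.88), Mest (0.88) and Zcchc8 (0.87). Igf2 matched Gm49394 (1.00), which counts the same reads, and then Vtn (0.89) and Col3a1 (0.84), the latter a gene of the vascular and fibroblast list.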

How the data were processed

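The authors deposited Cel-seq2 tables of spliced, unspliced and total molecules per gene and well. The values are expected counts: UMI counts that the authors had corrected for barcode collisions, as the values themselves show (undoing the correction for 4096 barcodes gave whole numbers at a tolerance of 1e-06). The submitters' processing notes name Trim Galore, STAR 2.5.3a and mm10. The labels do not name the gene annotation release; 37952 of 37994 gene IDs of the series table match GENCODE M21. Total counts were summed per plate over wells and rounded, and edgeR 4.0.16 (R 4.3.3; filterByExpr, TMM, quasi-likelihood F test) was run on the sums, with Benjamini-Hochberg adjustment over all genes tested and a threshold of 0.05. The test planned for raw counts was so applied to rounded expected counts. SEs are the log2 fold change over the square root of F.

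Levels are CPM with the SD over plates. Wells were thinned once with a fixed seed, no doublet caller was run, and wells were assigned to plates by their table columns. Wells above 3 times the plate's median depth were left out in 1 alternative. DESeq2 1.42.0, RLE scaling, no filter, spliced counts, a gate of 2 Pou4f1 UMIs, a replicate block and single plates left out were the others. Leaving out the 3 plates that stood apart, or wells with vascular and fibroblast genes, was added after seeing the data. Intervals and floors cover counting error only. On simulated data for E11 to P7, 34% of 2-fold and 99% of 4-fold changes were recovered in a test of 16353 genes. The 100 genes changed at each fold were drawn from those with a mean above 20 CPM. Recovery for genes of lower level was not simulated.

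The members and all lists were chosen with earlier results of these data known. All 10 members entered every comparison in which they had counts enough to be tested, but not every value is printed. Called genes with the smallest adjusted p are named from the lists: up to 6 of each parental class of other imprinted genes, up to 3 of each other list.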

Additional observations from a re-analysis of the deposited data

How the results depend on the processing

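Of the member results recomputed under the alternatives, 1772 values kept their direction and side of the threshold, 85 fell below it, 63 rose above it and 45 reversed. The cause of these changes was not tested. The number of genes tested also changed with the setting, so gene counts below without a percentage are not shares to set beside the members. In Pou4f1-positive wells a fit of only the 4 plates compared called 9543 genes from E11 to P7, 1938 from E18 to P4 and 116 from P7 to adult. From P7 to adult 1465 genes passed with no filter (2 members), 394 without wells of very high depth, 917 at Pou4f1 of at least 2, 1251 in DESeq2 (1 member) and 1359 without the 3 plates that stood apart. No filter called all 10 members from E18 to P4, where it called 4105 of 35866 genes (11.4%). In all kept wells from E11 to P7 the 4 plates alone called 9556 genes (10 members), no filter 9 members (14.3% of genes), and leaving out the 3 plates 8561 genes. Left against right, no filter called 28 genes and 1 member. Between Pou4f1-positive and negative wells of the series, no filter called 6500 genes, thinning before the gate 445 (2 members) and leaving out wells with vascular and fibroblast genes 2269 (4 members); in the C57BL/6 set no filter called 3423, thinning 652, and no plate term 1 member (14.4% of genes). Leaving out single plates gave 6222 to 8910 genes (9 to 10 members) for the stage difference in Pou4f1-positive wells, 2977 to 6475 (2 to 7) from E11 to P7, 1123 to 4167 (4 to 8) from E18 to P4 and 88 to 1292 (0 to 0) from P7 to adult. It gave 5626 to 10475 (7 to 10) for the stage difference and 2107 to 6580 (3 to 7) from E11 to P7 in all kept wells, 5 to 81 (0 to 1) left against right, and 3252 to 3776 (7 to 9) and 1193 to 2347 (1 to 3) between Pou4f1-positive and negative wells of the series and the C57BL/6 set. Of the values that reversed, none passed in either form. From P7 to adult Mirg was 0.028 under RLE scaling, 0.30 with spliced counts, 0.030 in DESeq2 and 0.017 on 4 plates, and Ndn 0.062, 0.069, 0.062 and 0.051 in the same order and 0.079 without the 3 plates. Peg3 was -0.35 without wells of very high depth and -0.42 without vascular and fibroblast wells, and Igf2 -0.71 at Pou4f1 of at least 2 and -0.51 without vascular and fibroblast wells. Without single plates the P7 to adult values ran from -0.20 to 0.099 for Mirg, -0.053 to 0.18 for Peg3, -0.15 to 0.075 for Ndn and -0.14 to 0.88 for Cdkn1c, and the E11 to P7 value of Igf2 from -1.14 to 2.98. Left against right, Dlk1 was -0.045 at Pou4f1 of at least 2 and -5.95 to 7.90 without single plates, Mirg 0.049 with no filter and -0.27 to 0.21, Igf2 -3.33 to 7.33 and H19 -2.63 to 1.91. In the C57BL/6 comparison of wells Meg3 was -0.033 with spliced counts, -0.078 with no plate term, -0.078 thinned and -0.12 to 0.18 without single plates, Rian -0.029 with spliced counts, -0.18 thinned and -0.015 to 0.37, Mirg 0.038 with no filter and -0.32 to 0.081, and Peg3 0.14 with no filter, 0.35 thinned and -0.11 to 0.017. The plate numbers did not pair the samples: of 21 pairs of stages, 5 had a correlation of deviations above 0.1 (-0.33 to 0.52). With the number as a replicate block 7526 genes (10 members) passed for the stage difference in Pou4f1-positive wells, 5462 (6) from E11 to P7, 3112 (7, Rian added at 1.48) from E18 to P4, 510 (0) from P7 to adult, 7200 (8) and 4693 (4, Mirg lost at 0.76) in all kept wells and 0 (0) left against right, where the block turned Igf2 to 0.023. Adult plate 1 held 21 Pou4f1-positive wells, and which changes from P7 to adult this depth could show was not simulated.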
